A study of Homo sapiens with 8 samples.

Results

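The MEIS, PKNOX, PBX and TGIF genes were followed by symbol in the deposited gene table: of 9 genes named beforehand (MEIS1, MEIS2, MEIS3, PBX2, PBX3, PBX4, PKNOX1, PKNOX2 and TGIF1), 8 were among its 15811 genes, and the expression of PBX4 was not analysed here. They were measured by total RNA sequencing in H9, an established human embryonic stem cell line, as 4 wild-type (WT) libraries and 4 from a line whose EXT1 locus had been targeted by CRISPR/Cas9 (EXT1-/-). The EXT1 product elongates heparan sulfate, a sulfated sugar chain of cell-surface proteins, and the series' design text describes the knockout line as lacking it. Both groups had received 6 µM CHIR-99021, a GSK3 inhibitor, in RPMI-1640 medium for 28 h to start mesendoderm differentiation, so all libraries share the inhibitor. A single knockout line stands for the genotype, no uninduced library was analysed here, and nothing in the labels says whether replicates came from separate cultures. The p-values therefore reflect only how these libraries spread, which may be technical.

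These genes encode homeodomain proteins whose DNA-binding domain carries a three-residue loop extension, from which the TALE class takes its name. PBX proteins bind DNA together with HOX proteins, and MEIS and PKNOX (also called PREP) proteins bind PBX through their amino-terminal part and help to bring it into the nucleus. MEIS genes are known for patterning of the hindbrain, limb, heart and eye, and MEIS1 and MEIS2 are known to respond to retinoic acid. TGIF1 is the odd one among them: it is a repressor that acts on SMAD and retinoid receptor complexes and is mutated in holoprosencephaly.

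MEIS1, MEIS2 and MEIS3 had the largest differences among the genes with a RefSeq promoter entry, and their start regions are shown here because MEIS1 and MEIS2 were higher and MEIS3 lower in EXT1-/- cells. Each sequence is the stretch before an annotated start that holds no exon of GENCODE 29, read 5′ to 3′ on the gene's strand from RefSeq (build GRCh38.p14), and capitals mark a match to a searched motif.
MEIS1 (chr2:66434875-66435124, plus strand): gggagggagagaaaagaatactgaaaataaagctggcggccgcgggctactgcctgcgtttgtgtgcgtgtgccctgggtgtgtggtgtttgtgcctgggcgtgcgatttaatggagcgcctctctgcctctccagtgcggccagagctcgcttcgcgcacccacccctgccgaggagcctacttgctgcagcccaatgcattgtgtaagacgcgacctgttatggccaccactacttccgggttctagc
MEIS2, the second of its starts (chr15:37098697-37098900, minus strand): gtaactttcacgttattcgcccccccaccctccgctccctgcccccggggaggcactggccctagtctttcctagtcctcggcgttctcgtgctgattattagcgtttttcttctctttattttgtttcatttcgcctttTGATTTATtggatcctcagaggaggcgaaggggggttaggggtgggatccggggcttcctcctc
MEIS3, the second of its starts (chr19:47419528-47419777, minus strand): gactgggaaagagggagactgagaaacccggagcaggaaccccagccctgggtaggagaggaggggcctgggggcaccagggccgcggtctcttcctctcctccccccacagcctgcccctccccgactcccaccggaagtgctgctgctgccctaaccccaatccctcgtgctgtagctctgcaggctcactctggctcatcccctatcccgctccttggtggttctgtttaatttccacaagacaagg
The motifs, each searched on both strands in windows of 300 bases, were TGACAG (the core of MEIS and PKNOX sites), TGTCAA (a TGIF site, which shares the letters TGTCA with the reverse complement of the first), TGATTNAT (a PBX site with HOX), TGAT followed directly by TGACAG (a PBX site with MEIS or PKNOX), AGGTCA (a half-site of nuclear receptors) and CTTTGAT (a TCF and LEF site). MEIS2 held TGATTNAT once, 64 bases before its second start, a motif that 2.82% of 34796 promoter windows held. A TGTCAA match lay further upstream in the same MEIS2 window, at 246 bases before the start and outside the stretch shown, where 8.93% of windows held one. PBX3 held TGACAG on the opposite strand 20 bases before its start, in the sequence that follows, and 15.8% of windows held that motif.
PBX3 (chr9:125748155-125748176, plus strand): ttgccgagCTGTCAccctcccg
None of the motifs was found in the windows of MEIS1, MEIS3, PBX2, PBX4 or PKNOX1, and the joined PBX and MEIS motif and CTTTGAT were found in no window of the 8 genes with an entry (0.158% and 2.62% of all windows held them). TGIF1 has 7 listed starts, of which 6 held at least 1 match, in part because more windows were searched. A match describes letters in a window and not a bound site.

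Libraries totalled 37737058 to 40017763 normalised read counts, and a level of 38.9 corresponds to 1 CPM (counts scaled to the library total). EXT1 itself averaged 1562 ± 144 in WT and 919.8 ± 41.6 in EXT1-/- libraries (SD, n = 4 each), so its transcript was lower in every library with the knockout label. Libraries fell into a high set, in which mitochondrially encoded transcripts took 9.18 to 10.7% of counts (WT replicate 1 and EXT1-/- replicates 1 and 4), and a low set of 5 libraries with 5.30 to 5.43%. The labels name no such sets, and each result below is also given within the low set, or with the set as a term, where that changes it. Differences were fitted with limma on log2(value + 1), with Benjamini-Hochberg adjustment over all 15811 genes and an adjusted p of 0.05 as the threshold. In bulk RNA, fewer cells of a type and less RNA per cell cannot be told apart.

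Of the 8 genes, 4 were higher in EXT1-/- cells (MEIS1, MEIS2, PKNOX2 and PBX3), 2 were lower (MEIS3 and TGIF1) and 2 did not pass (PBX2 and PKNOX1). Over all genes 32.0% passed, 15.2% as higher and 16.8% as lower. The groups did not overlap for 6 of the 8, where 33.5% of all genes did not overlap. At least a 2-fold difference together with a pass was found for 4 of the 8, against 7.02% of all genes. The median size of the log2 fold change, sign disregarded, was 0.95 over the 8 genes and 0.22 over all genes. The authors' deposited table gave an FDR under 0.05 for the same number, 6 of 8, where it marked 26.2% of all genes. Genes entered that table at about 1 CPM in 2 libraries. MEIS1 would not have entered it on its WT values alone, among which only replicate 4 (45 counts) reached that level. It needed EXT1-/- values to be listed, and counts over the 8 genes lean towards difference for that reason.

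**Figure D1:**
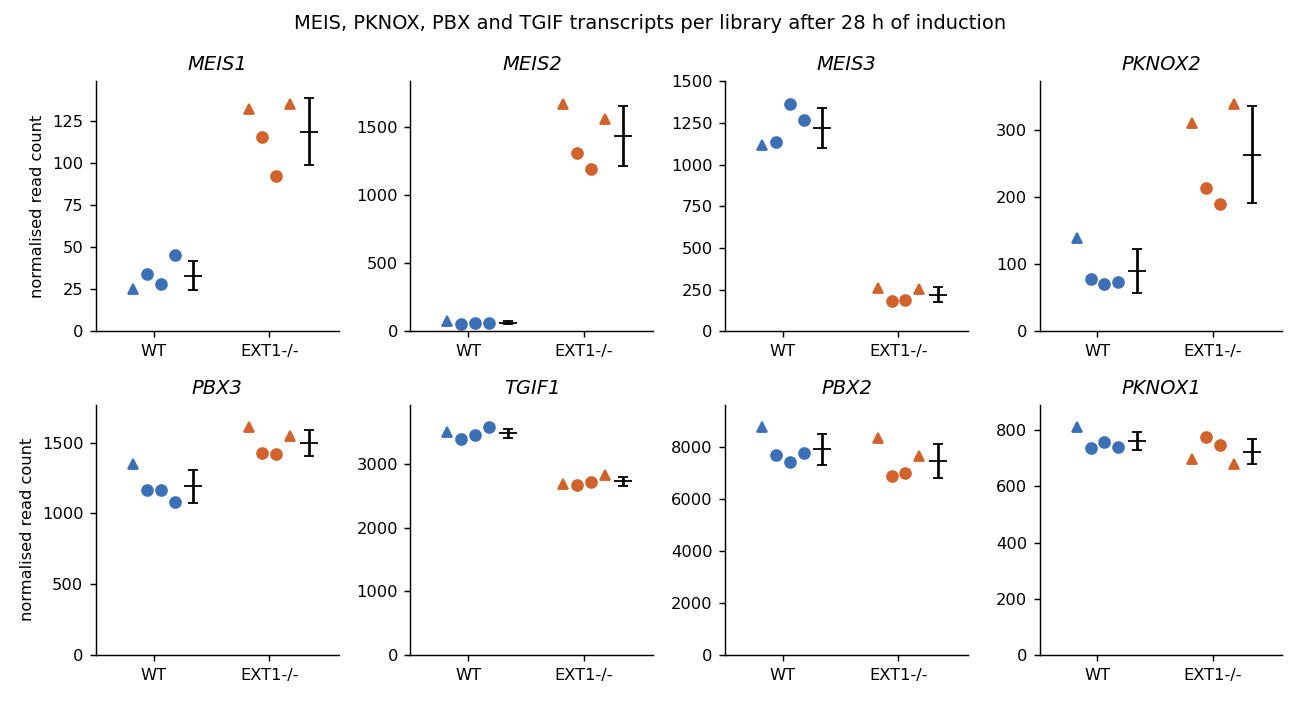
Normalised read counts of the 8 genes in each library, WT in blue and EXT1-/- in orange, with the mean and SD beside each group (n = 4) and an axis that starts at 0. Triangles are libraries of the high mitochondrial set and circles those of the low set. The groups are apart in every panel but those of PBX2 and PKNOX1.

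MEIS2 showed the largest difference of the family. This gene (ENSG00000134138, chromosome 15, 36889204 to 37101299 on the minus strand, GRCh38, GENCODE 29) encodes a TALE factor of the limb, palate, cranial neural crest and forebrain. In replicate order, WT libraries held 78, 52, 63 and 57 normalised counts of MEIS2, and EXT1-/- libraries held 1669, 1309, 1189 and 1560. The lowest EXT1-/- library thus lay far above the highest WT library. The means, 62.5 ± 11.3 and 1432 ± 221 (SD, n = 4 each), differed 22.9-fold, with a log2 fold change of 4.50 ± 0.15 (SE; adjusted p 3.60e-07, limma). In both genotypes the libraries of the high set gave the highest MEIS2 counts.

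MEIS1 (ENSG00000143995, chromosome 2, 66433452 to 66573869, plus strand), a regulator of blood stem cells, heart and eye, was low in all libraries and higher in EXT1-/- cells. It counted 25, 34, 28 and 45 in the WT libraries and 132, 115, 92 and 135 in the EXT1-/- libraries. Even the lowest EXT1-/- library exceeded the highest WT library. The log2 fold change was 1.83 ± 0.21 (SE; adjusted p 0.000246, limma), 3.59-fold between means of 33.0 ± 8.83 and 118.5 ± 19.7 (SD, n = 4 each). The mean WT level of 0.848 CPM is near the depth at which genes were kept. GENCODE lists MEIS1-AS2 and MEIS1-AS3 on the opposite strand of the locus; the library kit keeps strand, per the labels, but how strand was used in counting is not given in the sources used here.

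MEIS3 went the other way. The gene (ENSG00000105419, chromosome 19, 47403124 to 47419523, minus strand) encodes the MEIS protein best known from hindbrain induction in frog embryos. WT libraries held 1116, 1134, 1366 and 1266 normalised counts, and EXT1-/- libraries held 262, 179, 185 and 253. No EXT1-/- library came near the WT range. Mean counts were 1220 ± 118 and 219.8 ± 43.8 (SD, n = 4 each), 5.55-fold lower in EXT1-/- cells, and the log2 fold change was -2.48 ± 0.14 (SE; adjusted p 4.80e-06, limma). MEIS3P1, a processed pseudogene of MEIS3 on chromosome 17 with close sequence, was also in the table. It had 188, 166, 162 and 172 counts in WT and 180, 157, 137 and 205 in EXT1-/- libraries, and did not pass (log2 fold change -0.03, 95% interval -0.33 to 0.26). Reads may be shared between the pair, so both levels are uncertain, and the part of shared reads in the MEIS3 difference was not tested.

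MEIS transcripts therefore differed in make-up. Levels of different genes are compared per kilobase of the longest GENCODE transcript, in CPM per kb. MEIS3 made up 96.0, 96.7, 97.1 and 96.6% of the summed MEIS level in the WT libraries. In the EXT1-/- libraries it made up 24.3, 21.7, 24.2 and 24.8%. MEIS2 took 2.27 ± 0.52% of the sum in WT and 70.7 ± 1.14% in EXT1-/- libraries, and MEIS1 took 1.12 ± 0.29% and 5.53 ± 0.39% (SD, n = 4 each). The sum itself was 13.6 to 16.5 CPM per kb in WT and 8.96 to 12.6 in EXT1-/- libraries, so the ranges of the summed level did not overlap either. As a ratio that needs no gene length to be compared between libraries, the log2 of MEIS2 over MEIS3 counts was -4.28 ± 0.30 in WT and 2.71 ± 0.11 in EXT1-/- libraries (SD, n = 4 each). With the union of all exons as the length, the MEIS3 share was 96.4% in WT and 22.9% in EXT1-/- cells. RSEM estimates which transcripts are present, and the transcripts in use were not analysed here, so these lengths are approximate.

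**Figure D2:**
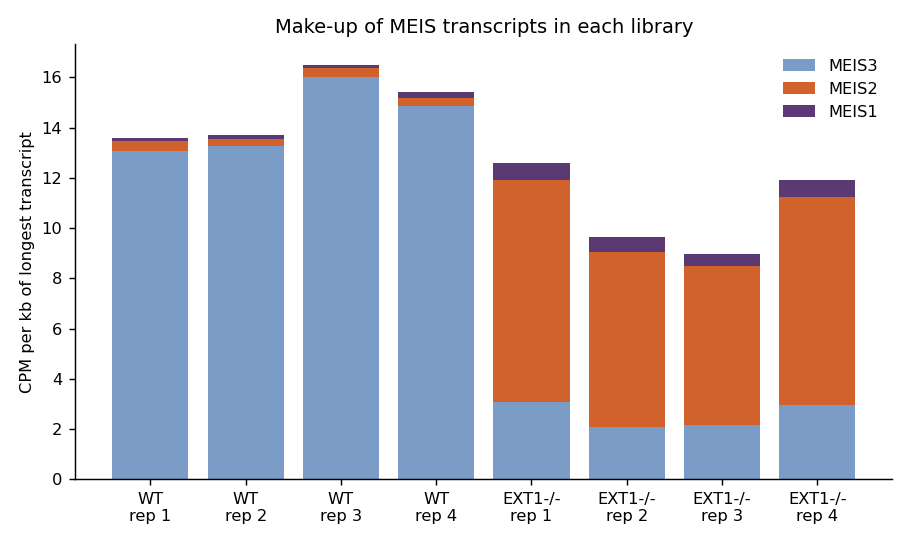
Level of MEIS1, MEIS2 and MEIS3 in each library, stacked, in CPM per kb of the longest transcript. The WT bars are almost all MEIS3 (96.0 to 97.1%), whereas MEIS2 makes up 69.5 to 72.3% of the EXT1-/- bars.

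The PKNOX genes, which encode the other partners that bind PBX through the same surface, differed from each other. PKNOX2 (ENSG00000165495, chromosome 11, 125164687 to 125433389, plus strand) is the more tissue-restricted of the pair, with known expression in brain and muscle. It had 139, 78, 71 and 73 normalised counts in WT and 311, 213, 190 and 339 in EXT1-/- libraries. WT replicate 1 stood above the other WT libraries and below every EXT1-/- library. PKNOX2 rose 2.92-fold, from 90.2 ± 32.6 to 263.2 ± 72.8 (SD, n = 4 each; log2 fold change 1.55 ± 0.26 SE, adjusted p 0.00216, limma). PKNOX1 (ENSG00000160199, chromosome 21, 42974510 to 43033931, plus strand), the broadly expressed partner, held 810, 736, 760 and 742 counts in WT and 696, 775, 746 and 679 in EXT1-/- libraries. Its groups overlapped, and the difference did not pass (log2 fold change -0.07, 95% interval -0.22 to 0.07, adjusted p 0.422, limma). Within the low set the PKNOX1 value had the other sign, at 0.028 (adjusted p 0.706).

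PBX genes encode the partners that HOX, MEIS and PKNOX proteins share. PBX3 (ENSG00000167081, chromosome 9, 125747345 to 125967377, plus strand) counted 1351, 1166, 1169 and 1079 in WT and 1608, 1427, 1420 and 1546 in EXT1-/- libraries. The groups were apart by a narrow margin, from 1351 to 1420. It rose 1.26-fold, from 1191 ± 114 to 1500 ± 92.2 (SD, n = 4 each; log2 fold change 0.34 ± 0.08 SE, adjusted p 0.0124, limma). PBX2 (ENSG00000204304, chromosome 6, 32184741 to 32190186, minus strand) was the most abundant gene of the 8, with 8733, 7689, 7391 and 7754 counts in WT and 8311, 6859, 6999 and 7633 in EXT1-/- libraries. These ranges overlapped broadly, and the difference did not pass with all libraries (log2 fold change -0.08, 95% interval -0.26 to 0.09, adjusted p 0.450). With the library set as a term PBX2 was lower by a small amount, -0.13 ± 0.03 (SE; adjusted p 0.0103), as it was within the low set (-0.14, adjusted p 0.0177, limma in each case). PBX2P1, a processed pseudogene of PBX2, is annotated in GENCODE and was not analysed here.

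TGIF1 (ENSG00000177426, chromosome 18, 3411608 to 3459978, plus strand) was lower in EXT1-/- cells, by little but with small spread. Its counts were 3505, 3403, 3464 and 3579 in WT and 2694, 2673, 2727 and 2839 in EXT1-/- libraries. All 4 WT libraries lay above all 4 EXT1-/- libraries. From 3488 ± 73.9 to 2733 ± 73.9 (SD, n = 4 each), TGIF1 fell by 0.35 ± 0.05 (SE) on the log2 scale, which is 1.28-fold (adjusted p 0.000515, limma). With libraries reassigned to groups in all 70 possible ways, the exact permutation p (two-sided) was 0.0286 for each of MEIS1, MEIS2, MEIS3, PKNOX2, PBX3 and TGIF1, the smallest this design allows; it was 0.343 for PBX2 and 0.257 for PKNOX1.

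**Figure D3:**
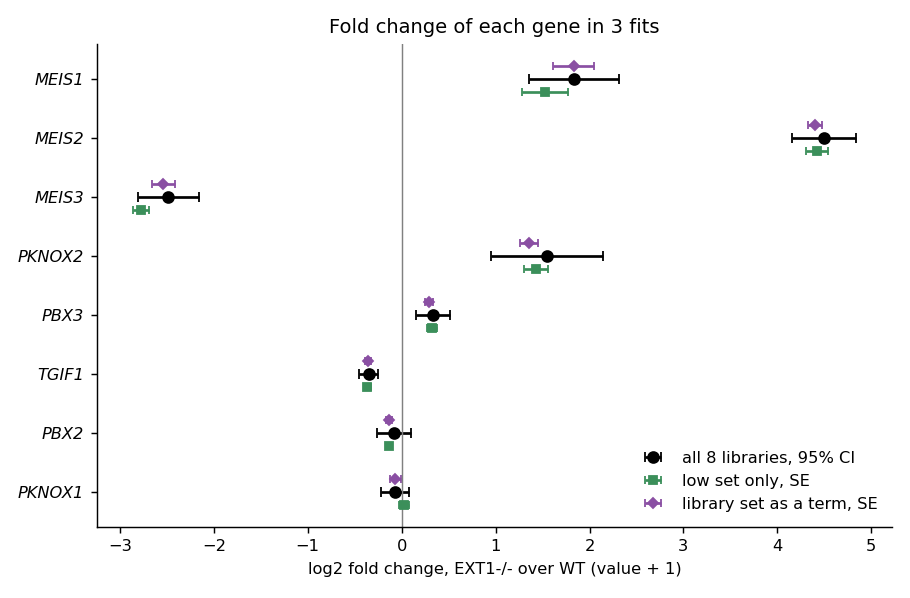
Log2 fold change (EXT1-/- over WT, on value + 1) of the 8 genes with all libraries (black, 95% interval), with the library set as a term (purple, SE) and within the low set (green, SE). MEIS2 lies at 4.50, 4.40 and 4.42 in these fits and MEIS3 at -2.48, -2.54 and -2.78, and the PKNOX1 values lie on both sides of 0.

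Differences of these genes between the library sets are described here and were not tested. With the set as a term, the difference of the high from the low set was positive for 7 of the 8 genes, as for 52.3% of all genes. It was 0.78 on the log2 scale for PKNOX2, a value that 2.34% of all genes reached or exceeded, 0.40 for MEIS2, 0.21 for MEIS3, 0.20 for PBX2 and 0.19 for PBX3, against a median size of 0.20 over all genes. For MEIS1 and TGIF1 it was 0.01 and 0.02, and for PKNOX1 it was -0.03. The MEIS1 value averages opposite differences: the high library was the lowest in WT (25 against 28 to 45), and the high libraries were the highest in EXT1-/- cells (132 and 135 against 92 and 115). The MEIS1 genotype difference was accordingly 1.53 among low-set libraries and 2.37 among the 3 of the high set, and the gap between the sets was not tested. The genotype difference within the low set was 4.42 for MEIS2, 1.53 for MEIS1, -2.78 for MEIS3, 1.43 for PKNOX2, 0.32 for PBX3 and -0.37 for TGIF1, and all 6 passed there. Of the 8 genes 7 passed within the low set, where 45.4% of all genes did, and 7 passed with the set as a term, where 51.8% did.

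**Figure D4:**
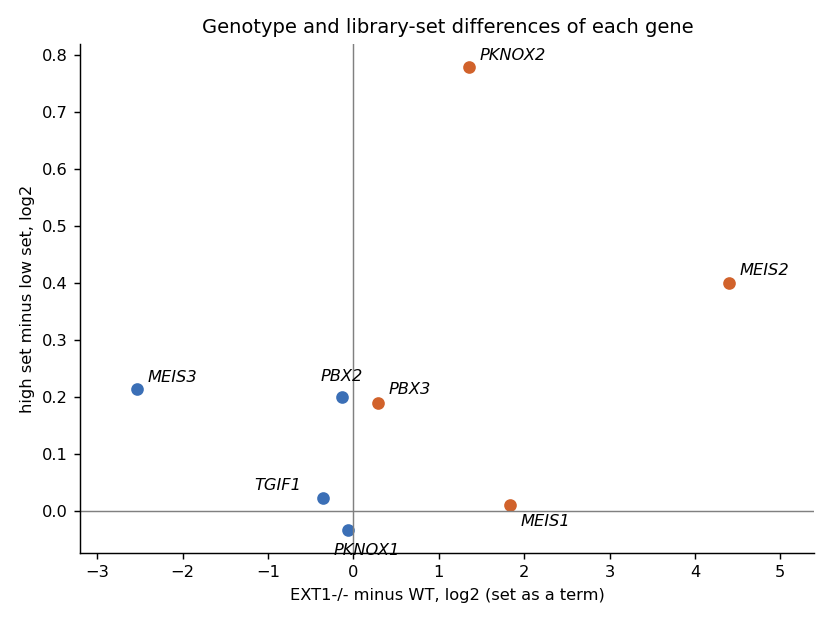
For each gene, the genotype difference (horizontal, EXT1-/- minus WT with the set as a term) against the library-set difference (vertical, high minus low mitochondrial set), both on the log2 scale, orange for a positive and blue for a negative genotype difference. PKNOX2 has the largest set difference of the 8, at 0.78, and MEIS2 the largest genotype difference, at 4.40.

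In order of level per kilobase of the longest transcript, WT cells held PBX2 (63.3 ± 4.67 CPM per kb), TGIF1 (29.6 ± 0.63), MEIS3 (14.3 ± 1.38), PBX3 (10.6 ± 1.01), PKNOX1 (3.78 ± 0.17), PKNOX2 (0.512 ± 0.185), MEIS2 (0.333 ± 0.060) and MEIS1 (0.166 ± 0.044; SD, n = 4 for each). Among neighbours in that order the libraries of PKNOX2 and MEIS2 overlapped, and no others did. In EXT1-/- cells MEIS2 stood next after PBX3 at 7.62 ± 1.18 CPM per kb, above PKNOX1 (3.59 ± 0.22) and MEIS3 (2.57 ± 0.51), and PBX2 again led at 59.8 ± 5.33. By the length of the union of exons PBX3 (6.76 ± 0.65) and MEIS3 (6.12 ± 0.59) changed places in WT cells and overlapped, so their order rests on the length chosen.

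Neighbouring genes were read for the members with the largest changes. The nearest protein-coding genes in the table on either side of MEIS2 were C15orf41, 79.0 kb away, with a log2 fold change of 0.24 (adjusted p 0.116), and SPRED1, 1151 kb away, which fell by 0.74 (adjusted p 0.00753, limma). MEIS1 lies between SPRED2, 1001 kb away (-0.35, adjusted p 0.0598), and ETAA1, 823.5 kb away (0.01, adjusted p 0.864). SPRED1 and SPRED2 encode related inhibitors of RAS and ERK signalling. DHX34 and SLC8A2 flank MEIS3 at 20.4 and 8.49 kb and did not pass (0.31 and 0.07, adjusted p 0.141 and 0.822). FEZ1, a kinesin adaptor gene of neurons that lies 9.49 kb from PKNOX2, was higher by 1.09 (adjusted p 0.000297), while TMEM218 on the other side, at 52.9 kb, was not called (0.05, adjusted p 0.571, limma).

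Genes with the most similar profile over the 8 libraries were found among 12995 protein-coding genes by the root mean square distance of centred log2 values, as a description. For MEIS2 these were LIX1 (distance 0.20, r = 1.00), DIO2 (0.29, r = 0.99), which encodes the deiodinase that activates thyroid hormone, and LUZP2 (0.32, r = 0.99). For MEIS1 they were the ligand gene BMP5 (0.16), FILIP1L (0.19) and ARHGAP24 (0.22), and for PKNOX2 AUTS2 (0.12), CITED2 (0.13) and TENM2 (0.15). PBX3 was closest to KIF20A, CLDN6 and ATG13 (0.03, 0.03 and 0.04), and TGIF1 to the kinase gene PRKX (0.02), PAAF1 (0.03) and CYFIP1 (0.03). All of these values share the same 8 libraries and the same difference between genotypes.

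Of a list of 10 other TALE homeobox genes 5 were measured, with 3 higher and 1 lower (15.2% and 16.8% over all genes). Their median log2 fold change was 0.91 (0.01 over all genes). IRX1, an Iroquois factor, went from 34.0 ± 13.2 to 625.0 ± 228 normalised counts and IRX3 from 18.5 ± 3.42 to 69.0 ± 20.2 (SD, n = 4 each). IRX2 rose by 0.91 ± 0.18 (SE) on the log2 scale. MKX, a regulator of tendon, fell by 1.04 ± 0.24 (SE) from 70.8 ± 18.2 to 33.2 ± 5.56 (SD, n = 4 each). Its log2 difference was -1.45 among low-set libraries and -0.21 among those of the high set, and the gap between the sets was not tested. MKX would not have entered the table on its EXT1-/- values. TGIF2, the close relative of TGIF1, had a log2 fold change of -0.20 ± 0.10 (SE), which did not pass (adjusted p 0.146), and passed with the library set as a term (-0.27, adjusted p 0.000424) and within the low set (-0.25, adjusted p 0.00560). WT values alone would have brought 3 of the 5 into the table, and EXT1-/- values alone 4.

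HOX genes encode the partners of PBX and MEIS proteins on DNA. Of 38 HOX genes in the list 5 were measured, and 4 of these were higher (median log2 fold change 2.20), where 15.2% of all genes were. HOXB1, a paralogue group 1 gene of the early hindbrain, rose from 109.8 ± 28.3 to 268.2 ± 117.7 normalised counts (SD, n = 4 each), by 1.22 ± 0.29 (SE) on the log2 scale. HOXA2 rose by 2.48, HOXA3 by 2.20 and HOXB2 by 2.27 from WT means under 1 CPM. HOXD1 had a value of -0.83 (adjusted p 0.0591), which did not pass; it did so within the low set (-0.91, adjusted p 0.0162). WT values alone would have brought 2 of the 5 into the table and EXT1-/- values alone 4, so this count leans towards rises. Of midbrain and hindbrain patterning genes 4 of 14 were measured, with 1 higher and 2 lower (15.2% and 16.8% over all genes). GBX2 rose by 0.71 ± 0.13, EPHA4 fell by 0.58 ± 0.07 and EGR2 by 1.33 ± 0.31 (SE), and PAX5 did not pass. EGR2 would not have entered the table on its EXT1-/- values, so it had to differ to be listed.

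Cofactors and regulators of TALE proteins were measured for all 14 genes of the list, with 4 higher, none lower and 10 that did not pass (median 0.11). SMAD3, a signal carrier of Nodal and TGF-beta on which TGIF1 acts, had 1730 ± 51.6 normalised counts in WT and 3224 ± 87.8 in EXT1-/- libraries (SD, n = 4 each). It rose by 0.90 ± 0.05 on the log2 scale (SE; adjusted p 3.64e-06, limma). SIN3A, a corepressor that TGIF1 recruits, rose by 0.38 ± 0.09 (SE; adjusted p 0.0141). SMAD2 (0.30, adjusted p 0.0420) and CTBP1 (0.40, adjusted p 0.0452) passed narrowly; the first was lost without any 1 of WT replicates 1 to 4 or EXT1-/- replicates 2 and 3 (adjusted p 0.0617 to 0.0986), and the second without WT replicate 2, 3 or 4 or EXT1-/- replicate 1, 2 or 4 (0.0611 to 0.105). PBXIP1, which binds PBX proteins and blocks their binding to DNA, had a value of 0.19 ± 0.07 (SE; adjusted p 0.0791), and passed with the set as a term (0.23, adjusted p 0.00217) and within the low set (0.25, adjusted p 0.00978). CRBN, the ubiquitin ligase receptor of which MEIS2 is a substrate, did not pass with all libraries (0.04, adjusted p 0.783) and passed narrowly with the set as a term (0.10, adjusted p 0.0453). Within the low set 6 of the 14 were higher and 1 was lower, near the 45.4% of all genes that passed there, as the 4 of 14 with all libraries were near 32.0%.

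Genes that make, break down or sense retinoic acid went both ways, with 4 of 13 measured genes higher, 5 lower and 4 not called (median 0.17). Over all genes 15.2% were higher and 16.8% lower. The synthesis genes ALDH1A1 and ALDH1A3 fell by 1.54 ± 0.20 and 1.28 ± 0.16 (SE) on the log2 scale, from 46.5 ± 8.23 to 15.2 ± 1.26 and from 170.5 ± 26.6 to 69.5 ± 11.6 normalised counts (SD, n = 4 each). ALDH1A1 would not have entered the table on its EXT1-/- values, so it had to differ to be listed. The receptor gene RARG rose by 0.44 ± 0.06 and CRABP1, a carrier of retinoic acid, fell by 0.59 ± 0.09 (SE). RARB, a classical retinoic acid target, had a value of 0.49 ± 0.24 (SE) that did not pass (adjusted p 0.160, limma). Beside it, DHRS3 (1.12, adjusted p 0.000966) and CRABP2 (0.75, adjusted p 0.0106), both known to respond to retinoic acid, rose. RDH10, another synthesis gene, did not pass (-0.10, adjusted p 0.647).

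**Figure D5:**
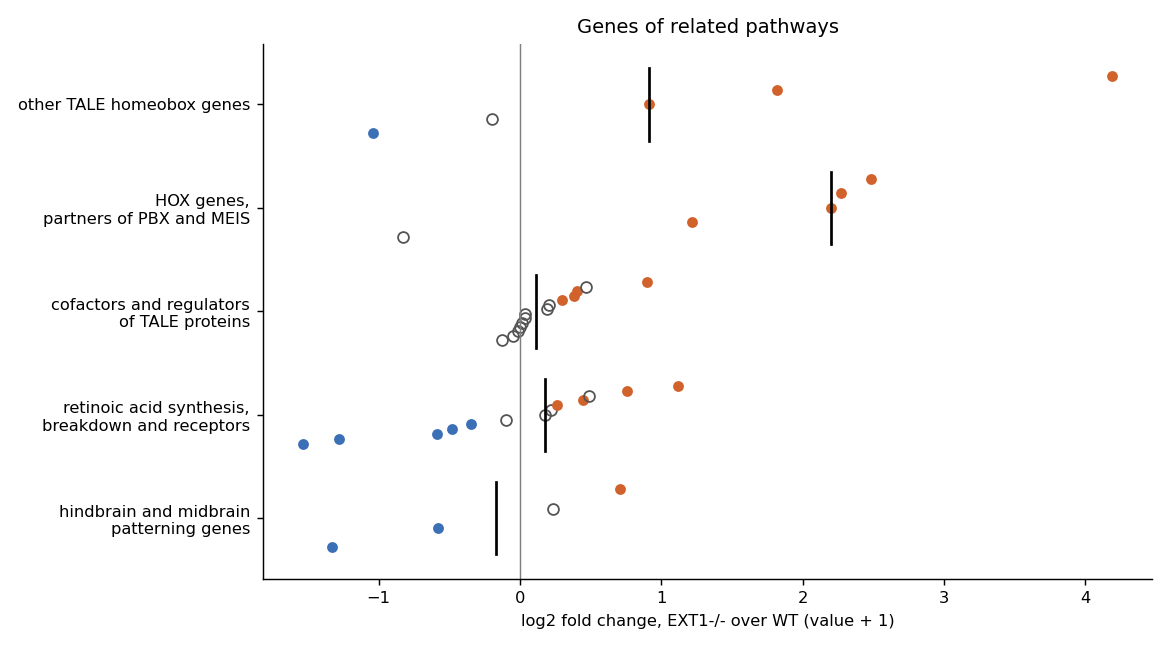
Log2 fold change (EXT1-/- over WT, on value + 1) of every measured gene in 5 lists, filled orange where higher, filled blue where lower and open where not called (limma, adjusted p of 0.05), with the list median as a black bar. The HOX median lies at 2.20 and that of cofactors at 0.11.

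Markers of several cell types also differed between the groups, where 32.0% of all genes passed, 15.2% as higher and 16.8% as lower. Of the neural crest and plate border list, 5 of 9 markers were measured and 5 were higher. Their summed level was 14.9 to 19.1 CPM in WT and 140.9 to 341.6 CPM in EXT1-/- libraries. MSX1 made up most of this sum, at means of 11.6 and 157.0 CPM. Of these 5, TFAP2A and DLX5 entered the table through EXT1-/- values only, so they had to differ; PAX3, MSX1 and MSX2 would have entered on WT values. Of the neuroectoderm list, 6 of 12 markers were measured, 5 higher and 1 lower, with 4 of the 6 entering on WT values. Their sum was 247.6 to 271.0 CPM in WT and 381.8 to 459.7 CPM in EXT1-/- libraries. NES made up most of this sum, at means of 233.4 and 285.6 CPM, and ZIC1 had means of 3.46 and 78.5 CPM. OTX2 was the lower member (log2 fold change -1.75) and entered on WT values only. Lateral and cardiac mesoderm markers (5 of 9 measured, 2 higher and 2 lower) summed to 284.1 to 307.6 and 45.7 to 56.4 CPM. KDR, a receptor of vascular progenitors, made up most of that sum, at means of 265.5 and 42.4 CPM, while HAND1 and TBX3 were the higher members and entered on EXT1-/- values only. Definitive endoderm markers (5 of 8 measured, 3 higher and 2 lower, 4 entering on WT values) summed to 11.7 to 13.5 and 34.4 to 50.3 CPM. GATA4 (means of 5.98 and 22.0 CPM) and CXCR4 (1.86 and 13.3 CPM) made up most of the EXT1-/- sum. FOXA2 and HHEX were the lower members (log2 fold change -1.62 and -2.33) and entered on WT values only. PRDM1, the other higher member, entered on EXT1-/- values only. Amnion and trophectoderm markers (5 of 9, 2 higher, TFAP2A again among them, and 1 lower) summed to 92.9 to 99.7 and 103.0 to 171.6 CPM, most of it CDX2 (means of 85.8 and 106.0 CPM), which did not pass. Paraxial and presomitic mesoderm markers (2 of 8 measured) had no called member with all libraries, and their sums overlapped, at 4.27 to 5.35 and 2.80 to 4.94 CPM. TBX6 of this list passed as lower within the low set (log2 fold change -0.89, adjusted p 0.0113, limma). It also passed with the set as a term (-0.75, adjusted p 0.00440, limma). Sums for the 8 primitive streak and mesendoderm markers, all measured, were 854.3 to 970.4 CPM in WT and 341.5 to 564.3 CPM in EXT1-/- libraries. Of these markers 1 was higher (FGF17, log2 fold change 2.52), 4 were lower and 3 were not called. Within the low set 1 was higher and 6 were lower, where 45.4% of all genes passed. Sums for the 8 pluripotency markers were 4266 to 4350 CPM in WT and 3200 to 3526 CPM in EXT1-/- libraries. Of the pluripotency markers 2 were higher (SOX2 at 0.94 and ZFP42 at 0.37), 4 were lower and 2 were not called. The part of these markers in the differences of MEIS1, MEIS2, MEIS3 and PKNOX2 was not tested.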

How the data were processed

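Per the submitters' processing notes the authors used STAR, RSEM and edgeR with build GRCh38.p10; versions are not given in the sources used here. The authors deposited 1 table with whole-number values per library, treated as a normalised signal and called normalised read counts, since totals of all libraries lie close together and in several libraries low values skip whole numbers at even steps. It also holds the authors' log2 fold change and log2 CPM, a likelihood ratio score, and p-values with an FDR, all deposited by the authors. Groups and replicate numbers come from sample titles, and 0 value columns belonged to other samples.

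Differences were tested on log2(value + 1) with limma 3.58.1 (R 4.3.3, intensity trend, genotype as the only term), adjusted by Benjamini-Hochberg over 15811 genes; genes needed a group mean of 1 or more. Negative binomial models were not run, as the values are not raw counts; limma-voom, which also assumes counts, was only an alternative. The fit was tested on simulated data. Python 3.11.15, pandas 2.3.3 and matplotlib 3.10.9 were used. GENCODE 29 matched 15777 genes (99.8%) and gave coordinates and lengths; RefSeq promoter windows (GRCh38.p14) were found for 8 of the 9 genes, 250 bases before to 50 after a start. All genes of the set were named; from each related list up to 4 genes with the smallest adjusted p were named, with other members added after their values were seen, as were neighbouring genes and MEIS3P1. Members and lists were chosen with earlier results of these data known. Not every gene of the TALE class or of the HOX list is reported here. Library sets were split at the largest gap in the mitochondrial share. Alternatives were other pseudocounts, filters, scalings and tests, a replicate block, the library set, and each library left out.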

Additional observations from a re-analysis of the deposited data

Results flagged for a closer look

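Within groups of 4 libraries, 92 groups (46 named genes) were checked for a library whose gap to its nearest neighbour exceeds Dixon's 95% critical share of the group's range, and 8 were found; chance gives about 1 in 20. PKNOX2 in WT had a share of 0.897, because WT replicate 1 held 139 counts and the others 71 to 78. WT replicate 1 was also the high library for EXT1 (0.859; 1776 counts, the next 1508), HOXB1 (0.881; 152, the next 100), HOXA2 (0.833; 23, the next 13) and SIN3A (0.934; 4717, the next 3743). It is the WT library of the high mitochondrial set. EXT1-/- replicate 4, of the same set, was high for HOXA3 (0.954; 212, the next 129) and PRKX (0.838; 5895, the next 5517). HOXA3 in WT was high in WT replicate 3 (0.833; 39, the next 29).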

How the results depend on the processing

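Of the 8 genes, MEIS1, MEIS2, MEIS3, PKNOX2, PBX3 and TGIF1 kept their direction and passed in all 19 alternative fits, with adjusted p of at most 0.0405 (PBX3 without WT replicate 2). Their log2 fold changes ranged from 1.53 to 1.99, 4.35 to 4.61, -2.78 to -2.39, 1.36 to 1.78, 0.29 to 0.40 and -0.37 to -0.34. PBX2 passed in 2 of the fits, those given above. PKNOX1 took the other sign within the low set (0.028), and MEIS3P1 without WT replicate 1 (0.011) and without EXT1-/- replicate 3 (0.064), in a range of -0.13 to 0.064 as each library was left out; the cause was not tested. Genes called over the table numbered 5063, and 8195 with the library set as a term; leaving out each library gave 3721 to 6041, and 6 of the 8 genes in every such fit. Whether replicate numbers pair the libraries is not known. Deviations from the group means correlated by 0.78, 0.44, 0.26 and -0.65 for numbers 1 to 4. Over all combinations of a WT and an EXT1-/- library, the correlation was positive within a mitochondrial set and negative between sets. These values therefore cannot decide the pairing. With the replicate number as a block, 4934 genes and 6 of the 8 passed; the block ended the CTBP1 call (adjusted p 0.0876) and brought PBXIP1 past the threshold (0.0416). Other fits that ended calls of named genes were upper quartile factors (CTBP1, 0.0568), limma without a trend (CTBP1, 0.0617; SMAD2, 0.0589), limma-voom (SMAD2, 0.0805) and the low set (CTBP1, 0.0702). The union of exons as length gave MEIS shares within 1 SD of those by the longest transcript. Requiring 1 CPM or more in 4 libraries left out HOXB2 and EGR2, which so have no value there. Depth limits MEIS1, HOXA2, HOXA3, HOXB2, IRX1, IRX3, BMP5, RARB, PAX5, TFAP2A, DLX5, HAND1, TBX3 and PRDM1, all under 1 CPM in WT cells. It also limits ALDH1A1, MKX, EGR2, HOXD1, FOXA2, HHEX and OTX2, all under 1 CPM in EXT1-/- cells.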
